A study of Homo sapiens with 15 samples.

Results

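BMAL1 occupancy was compared between 786O cells, an established line of clear cell renal cell carcinoma, that expressed a control shRNA (shControl) and the same cells depleted of BMAL1 by shRNA (shBMAL1). The members are the 1812 BMAL1 peaks of shControl cells and the 768 BMAL1 peaks of shBMAL1 cells, that is 2580 of the 4873 peaks in the 4 lists of the series, the remainder being HIF2α peaks. Retained denotes a shControl peak that shared at least 1 bp with a shBMAL1 peak, lost one that did not, and gained a shBMAL1 peak with no shControl counterpart. Peaks were ranked within each list by the −log10 p deposited for them, with rank 1 the strongest.

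Both shRNAs were delivered by lentivirus in a pLKO.1 vector and infected cells were selected with puromycin, so that the groups differ by the shRNA sequence. Chromatin was profiled by CUT&RUN, in which an antibody directs a nuclease to the bound protein and the released DNA is sequenced. The shControl list was pooled by the authors from 3 libraries and the shBMAL1 list from 2, the remaining library of that group having been dropped for few reads. The labels name the libraries as biological replicates and the study's reporting form as technical ones. Each group has a single pooled list, and neither list gives the depth behind it. The HIF2α lists, from 3 libraries in each condition, were used only to mark overlap.

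BMAL1 is a basic helix-loop-helix PAS protein that forms the core circadian activator with CLOCK. The heterodimer binds the E-box, and among its classic targets are the genes that feed back on it: the PER and CRY repressors, the nuclear receptors NR1D1 and NR1D2, which repress BMAL1, and the PAR bZIP factors DBP, TEF and HLF. In clear cell renal carcinoma, loss of VHL leaves HIF2α (encoded by EPAS1) stable, and HIF2α is a PAS protein of the same family that dimerises with ARNT.

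The windows at the summits of lost and retained peaks show the sequence features on which the results turn. Each window is 200 bp of hg19, forward strand, and overlaps no annotated UTR. In the first set, chosen as peaks of clock genes and the strongest lost peak outside EPAS1 and ARNT, capitals mark the E-box CACGTG (CIART, NR1D2, PER1, TEF) or the E′-box CACGTT (MAP2K7, CRY1). The peaks at CIART, NR1D2, MAP2K7 and CRY1 were lost, and those at PER1 and TEF were retained.
CIART (chr1:150254734-150254933): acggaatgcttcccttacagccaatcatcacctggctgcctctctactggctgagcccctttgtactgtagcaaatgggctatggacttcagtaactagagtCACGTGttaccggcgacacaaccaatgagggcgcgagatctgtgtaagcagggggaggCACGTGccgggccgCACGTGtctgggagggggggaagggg
NR1D2 (chr3:23987390-23987589): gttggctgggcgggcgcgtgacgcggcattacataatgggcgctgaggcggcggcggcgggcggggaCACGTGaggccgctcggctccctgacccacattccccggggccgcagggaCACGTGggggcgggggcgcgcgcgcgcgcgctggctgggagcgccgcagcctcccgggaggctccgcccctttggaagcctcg
MAP2K7 (chr19:7968491-7968690): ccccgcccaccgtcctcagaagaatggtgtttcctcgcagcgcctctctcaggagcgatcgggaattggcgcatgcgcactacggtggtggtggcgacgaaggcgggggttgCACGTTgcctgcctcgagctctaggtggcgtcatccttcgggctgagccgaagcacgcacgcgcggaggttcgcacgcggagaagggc
CRY1 (chr12:107487355-107487554): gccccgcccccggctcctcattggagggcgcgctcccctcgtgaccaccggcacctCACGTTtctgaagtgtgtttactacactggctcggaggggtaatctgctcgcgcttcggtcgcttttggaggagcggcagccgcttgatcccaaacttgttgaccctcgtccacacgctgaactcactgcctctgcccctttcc
PER1 (chr17:8059862-8060061): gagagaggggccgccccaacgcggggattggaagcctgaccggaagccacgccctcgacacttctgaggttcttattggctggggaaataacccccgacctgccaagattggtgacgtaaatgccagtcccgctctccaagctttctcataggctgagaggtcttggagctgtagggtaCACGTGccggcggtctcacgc
TEF (chr22:41777732-41777931): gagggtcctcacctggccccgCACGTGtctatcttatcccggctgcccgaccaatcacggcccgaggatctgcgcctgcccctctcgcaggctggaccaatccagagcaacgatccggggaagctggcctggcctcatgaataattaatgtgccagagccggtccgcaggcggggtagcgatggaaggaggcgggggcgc

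The second set was chosen from the strongest retained peaks, and capitals mark the GC box GGGCGG or its complement CCGCCC, the site of SP and KLF zinc finger factors. The FARP2 window is a tandem repeat of 37 bp with 100% identity between successive units.
FARP2 (chr2:242295089-242295288): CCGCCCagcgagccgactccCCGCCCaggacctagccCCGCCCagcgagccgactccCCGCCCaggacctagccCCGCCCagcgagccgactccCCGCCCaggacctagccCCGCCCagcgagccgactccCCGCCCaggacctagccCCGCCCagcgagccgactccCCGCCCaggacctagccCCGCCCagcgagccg
DOP1B (chr21:37528722-37528921): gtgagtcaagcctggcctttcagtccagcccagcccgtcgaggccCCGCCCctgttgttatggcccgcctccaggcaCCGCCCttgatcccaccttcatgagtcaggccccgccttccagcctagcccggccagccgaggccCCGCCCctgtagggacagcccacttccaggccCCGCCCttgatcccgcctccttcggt
INPP5A (chr10:134351091-134351290): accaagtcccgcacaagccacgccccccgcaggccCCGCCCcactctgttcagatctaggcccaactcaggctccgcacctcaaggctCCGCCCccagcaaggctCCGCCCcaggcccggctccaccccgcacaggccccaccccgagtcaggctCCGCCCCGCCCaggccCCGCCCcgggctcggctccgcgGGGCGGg

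The first question was how many BMAL1 sites remained after depletion of BMAL1. Of 1812 shControl peaks, 701 were retained (percent called 38.7) and 1111 were lost. When the shControl list was limited to its strongest 768 peaks, the length of the shBMAL1 list, 72.9% were retained. Of 768 shBMAL1 peaks, the share that coincided with a shControl peak was 91.3% and the share gained was 8.72%. Seen by gene, 1143 protein-coding genes had a shControl peak in a promoter, defined as 1000 bp upstream to 100 bp downstream of a start site. At least 1 such peak was retained at 523 of them (45.8%), none was retained at 620, and 24 genes had a promoter peak in shBMAL1 cells only. No lost peak lay within 200 bp of a shBMAL1 peak (0 of 1111) and no gained peak lay within 200 bp of a shControl peak (0 of 67), so that no lost or gained call came from a pair of neighbouring peaks that narrowly failed to overlap. Because the groups differ both in the shRNA and in the number of pooled libraries, these contributions to a lost peak cannot be told apart, and a region without a called peak may still hold signal.

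Retained peaks occupied nearly the same positions in both lists. The summits of the 701 pairs lay a median of 14 bp apart, and 564 pairs (80.5%) had summits within 50 bp. The shBMAL1 peak was the narrower one in 508 pairs (72.5%), with a median width of 273 bp against 340 bp. Strength within the lists was ordered alike, with a Spearman rho of 0.81 for −log10 p across the 701 pairs, which is given as a description. The fold enrichment, a ratio of the signal at the summit to the local background of the same list, had a median of 10.8 in shControl and 11.3 in shBMAL1 cells. It was lower in shBMAL1 cells in 264 of 701 pairs (37.7%), and the median log2 ratio of shBMAL1 to shControl fold was 0.18 (95% interval 0.11 to 0.22). The median −log10 p went the other way, with 51.9 for the retained shControl peaks and 35.5 for the shBMAL1 peaks shared with them. These values hold only for peaks that passed the shBMAL1 threshold, since a site whose signal lay below it is counted as lost, and they do not measure enrichment over all shControl sites. The study itself describes the peaks that remained as reduced in intensity. Its profiles and heatmaps were scaled to yeast spike-in DNA, which allows signal to be compared between conditions. The fold used here is a ratio to background within a list and carries no such scaling. It cannot show a drop shared by signal and background, so the measures are unlike and are not set against each other.

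The promoters of the PER genes and TEF had the lowest shBMAL1 fold relative to shControl. At the PER1 promoter, 236 bp upstream of a start site (chr17:8059672-8060246), the fold was 26.9 in shControl and 6.00 in shBMAL1 cells, and the rank was 89 and 627. At the TEF promoter (chr22:41777035-41778402) the fold was 16.2 and 3.64 and the rank 140 and 753. At PER3 (chr1:7843926-7844426) the fold was 13.5 and 3.94 and the rank 229 and 709. At PER2 (chr2:239197424-239197788) the fold was 13.4 and 3.91 and the rank 168 and 689. The log2 fold ratios of these promoters, -2.17 for PER1, -2.15 for TEF, -1.78 for PER3 and -1.78 for PER2, were the 4 lowest of the 701 pairs. The next were ZBTB24 at -1.44 and MAMSTR at -1.43, and in 24 pairs (3.42%) the fold was lower by a log2 ratio of 1 or more. PER1, PER2 and PER3 encode the period repressors of the clock, and TEF encodes a PAR bZIP factor of the clock output.

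A retained peak in an intron of NR1D1 (chr17:38255334-38255870), 1240 bp downstream of a start site and with 3 E-boxes, joined them by rank. Its rank was 160 in shControl and 628 in shBMAL1 cells, and its fold was 13.3 and 8.49, a log2 ratio of -0.64 that placed it at position 68 of 701. When each pair was placed by its order among the 701 pairs, the 5 largest falls in order were those of TEF, PER1, PER2, NR1D1 and PER3, of 573, 532, 505, 465 and 458 places. BLOC1S3 came next with 427 places (rank 271 in shControl and 727 in shBMAL1), so that the clock peaks lead a graded series. Among the 225 retained peaks that ranked 1 to 250 in shControl, these 5 (2.22%) ranked past 600 in shBMAL1 cells. The other 220 had a median shBMAL1 rank of 112.5 and none ranked past 464. This count restates the falls from the same ranks, and BLOC1S3 lies just outside the limit of 250. With ranks taken by fold in place of −log10 p, 4 of 223 such peaks ranked past 600, at PER1, TEF, SP1 and ZBTB24.

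**Figure D1:**
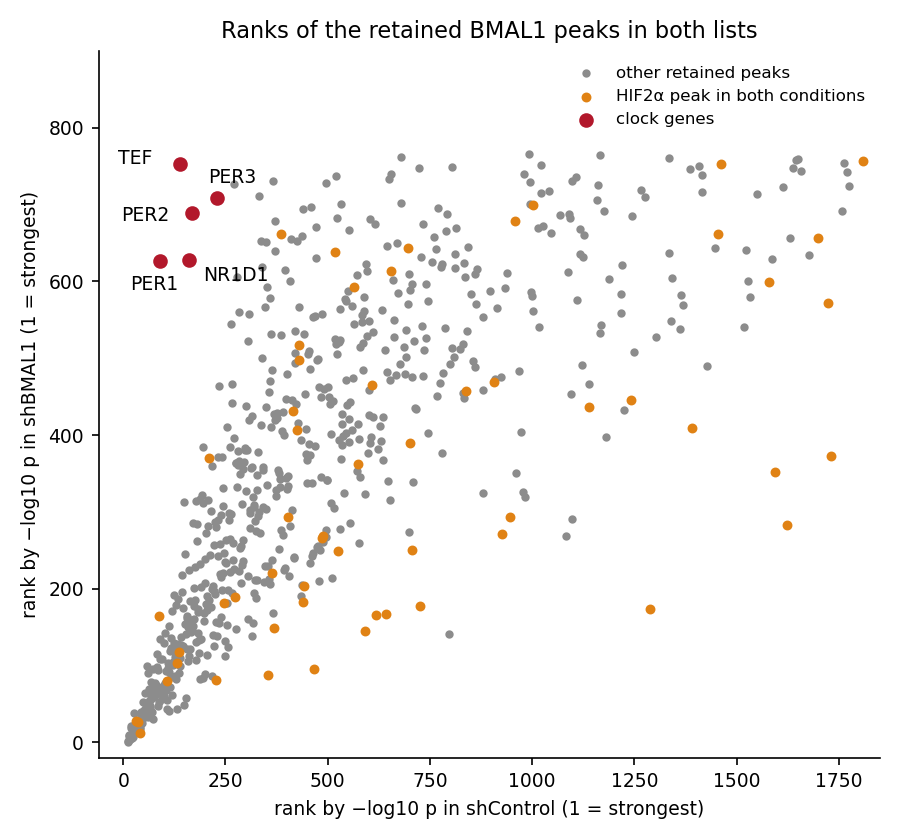
Rank of each of the 701 retained BMAL1 peaks in the shControl list (horizontal axis) and in the shBMAL1 list (vertical axis), by −log10 p with 1 the strongest. Red points are the retained peaks at TEF, PER1, PER2, PER3 and NR1D1, which lie at the upper left with BLOC1S3 (271 and 727) close to PER3, and orange points are the 59 pairs that overlap a HIF2α peak in both conditions, of which PER1 and PER2 are drawn in red.

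The remaining clock gene peaks were lost. By the nearest protein-coding start site or gene body, 22 shControl peaks lay at genes of the core clock or its output, of which 5 were retained and 17 lost. The share retained, 22.7% (95% Wilson interval 10.1% to 43.4%), has an interval that includes the 38.7% of all peaks. Anywhere in the peak, an E-box or E′-box was found in 16 of the 22 (72.7%, 51.8% to 86.8%), beside 21.1% of all 1809 shControl peaks with a determined window, and an E-box in 10 (45.5%, 26.9% to 65.3%), beside 15.6%. The widths of the 22 peaks ran from 144 bp (BHLHE40) to 1368 bp (TEF), and the median of all shControl peaks was 240 bp. A wider peak has more room for a motif, and these shares were not adjusted for width. The strongest lost peak of the group was that of CIART, a repressor of the CLOCK-BMAL1 dimer, with rank 209, a fold of 17.0 and 4 E-boxes in the peak (chr1:150254458-150255101). It was followed by the promoters of CRY2 (rank 298, fold 11.8), NR1D1 (rank 313, fold 11.4) and CRY1 (rank 337, fold 11.0), each with an E′-box and no E-box. The NR1D2 peak (rank 443, fold 10.6) held 2 E-boxes and lay 581 bp downstream of a start site. A further lost peak in an intron of PER1 (rank 632, fold 9.25) held 1 E-box, so that PER1 and NR1D1 each kept 1 peak and lost another.

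Among the output genes, peaks were lost at DBP (rank 666, fold 8.01), 26540 bp upstream of HLF (rank 996, fold 7.85), and at NAMPT, the rate-limiting enzyme of NAD salvage (rank 935, fold 5.96). BHLHE40, an E-box repressor, was the nearest gene of 3 lost peaks. The peak of rank 1745 was at its promoter. Those of ranks 1477 and 1568 were intergenic, 15592 and 44056 bp downstream of its start site. For its paralogue BHLHE41 the lost peak of rank 1740 lay 1089 bp upstream, within the body of SSPN. Retained and lost clock peaks overlapped in strength, since by −log10 p the lost CIART peak (rank 209) stood between the retained peaks of PER2 (168) and PER3 (229). A gained peak lay near PFKFB3, a regulator of glycolysis (rank 703 of the shBMAL1 list). Of 20 core clock genes 9 had no BMAL1 peak in either list, CLOCK, NPAS2, BMAL1 and RORA among them, and of 18 output genes 9 had none.

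**Figure D2:**
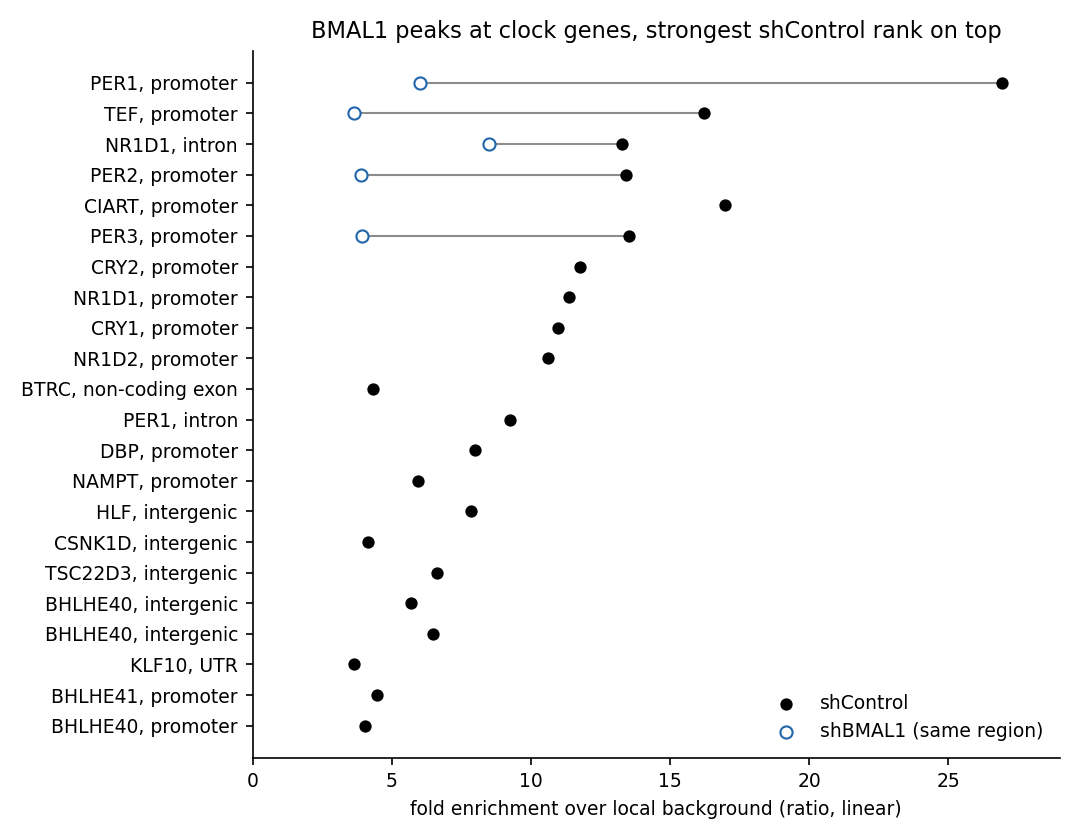
Fold enrichment over local background (horizontal axis, linear) of the 22 shControl BMAL1 peaks at clock genes, strongest rank on top. Black points are shControl values, open circles the shBMAL1 value of the 5 retained peaks, and a row without an open circle is a peak that was not called in shBMAL1 cells. The PER1 fold of 26.9 stands against 6.00 in shBMAL1 cells.

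The strongest peaks of the shControl list were lost, and whether they reflect BMAL1 binding was not tested. Ranks 1 to 10 lay in EPAS1 on chromosome 2, with folds of 98.9 to 189 and −log10 p of 4672 to 10087, and 5 of the 10 were centred on coding exons. A further 13 peaks lay in ARNT, with ranks of 22 to 213 and folds of 10.3 to 23.6. All of these regions were absent from the shBMAL1 BMAL1 list. The 10 EPAS1 regions overlapped HIF2α peaks in both conditions, while the 13 ARNT regions all overlapped a shControl HIF2α peak and 11 of them a shBMAL1 one. Outside these genes the strongest peaks were retained almost without exception: 36 of 36 in ranks 1 to 50, 44 of 44 in ranks 51 to 100 and 97 of 98 in ranks 101 to 200. Retention was 53.3% in ranks 401 to 800 and 12.8% in ranks 801 to 1812. The peak of ranks 101 to 200 that was lost is at the promoter of MAP2K7, a kinase of the JNK pathway (rank 192, fold 15.9, 96 bp upstream of the start site), and holds an E′-box.

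The 10 strongest lost peaks outside EPAS1 and ARNT were, in order, at MAP2K7, CIART, TTC34, SNX9, ZNF254, CRY2, SRRM3, NR1D1, TLE6 and RRP9, with ranks from 192 to 334. CIART, CRY2 and NR1D1 belong to the core clock. The lost clock peaks as a group were spread through the list, with 9 of the 17 ranked from 935 to 1745 and a median rank of 935, against 1206 for all lost peaks. The strongest lost promoter peaks with an E-box in the summit window were those of CIART, TLE6 (rank 332), ODAD1 (rank 382), NR6A1 (rank 389) and GNB2 (rank 416).

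The retained peaks at the head of the list lay at promoters of genes outside the clock. They were ASMTL in the pseudoautosomal region (ranks 11 and 12, the copies on X and Y, between which identical reads cannot be placed), TMEM87B (rank 13), DOP1B (rank 14), FBXL12 (rank 15) and FARP2 (rank 16). BRD3OS (rank 18) followed, with peaks nearest to NSUN5 (rank 17), ESPNL (rank 19) and EEF2K (rank 20) outside promoters of those genes. In shBMAL1 cells the same 10 peaks ranked between 1 and 22. At DOP1B the fold was 21.1 in shControl and 48.1 in shBMAL1 cells, at FARP2 28.1 and 58.4, and at TMEM87B 45.3 and 41.8. Strong promoter peaks with an E-box were retained as well, the first being ranked 27, 53, 55, 57 and 59, and among these TTYH3 (fold 18.8 and 13.6) and RELL1 (fold 22.1 and 31.4) have the peak within 200 bp of their start sites.

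Retention varied with the sequence under the summit. Motifs were searched on both strands of the 200 bp window in 1809 shControl peaks with a determined reference sequence. Shares carry 95% Wilson intervals and differences 95% Newcombe intervals. These cover counting error over peaks only, and neighbouring peaks of a gene are not independent. To compare peaks of more similar strength, each difference was also taken within quintiles of rank and averaged with Mantel-Haenszel weights. Strength and retention still vary inside a quintile, so this narrows differences in strength and does not remove them.

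An E-box under the summit went with a lower share of retained peaks. The share retained was 41.4% (39.0% to 43.9%) with no E-box, 21.3% (16.2% to 27.6%) with 1, and 11.1% (4.41% to 25.3%) with 2 or more. The difference between windows with and without an E-box was -21.7 percentage points (-26.9 to -15.6), and -15.7 points (-20.3 to -11.2) within quintiles of rank. It was -35.9 points with lists of equal length and -36.5 points with −log10 p of at least 20 in both lists. It was seen at promoters, where 27.9% of 136 peaks with an E-box and 48.8% of 1016 without were retained, and at distal sites, where the shares were 8.25% of 97 and 28.0% of 560. The E′-box gave a difference of -19.1 points (-26.2 to -9.99), and -11.0 points within quintiles. E-boxes of lost peaks also lay nearer to the summit, at a median of 39 bp (32 to 45, n = 187 peaks) against 55 bp (46 to 65, n = 46) for retained ones. The E-box was within 50 bp of the summit in 62.0% of the former and 41.3% of the latter, a difference of 20.7 points (4.70 to 35.3).

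GC boxes went the other way. Retention was 20.1% (17.3% to 23.3%) with no GC box, 33.3% with 1, 43.3% with 2, 51.8% with 3, 62.6% with 4 to 5 and 80.2% (71.8% to 86.5%) with 6 or more. The presence of a GC box went with a difference of 30.0 points (25.7 to 34.1). Within quintiles of rank it was 11.98 points (8.17 to 15.8), and so smaller among peaks of more similar strength. With both motifs considered, 52.4% of 1005 peaks with a GC box and no E-box were retained, 29.4% of 109 with both, 22.1% of 571 with neither and 11.3% of 124 with an E-box alone.

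**Figure D3:**
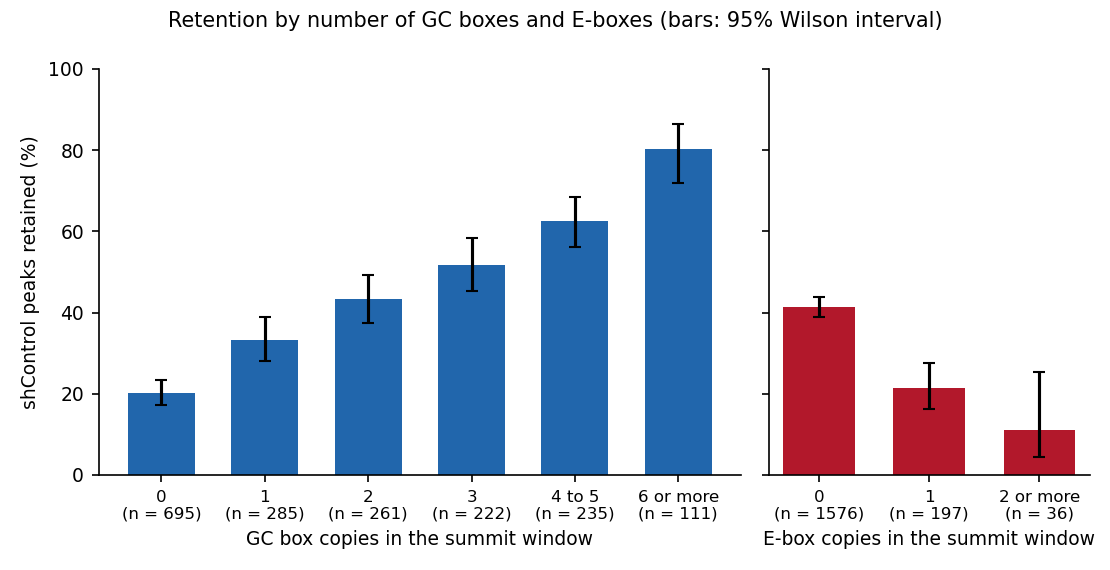
Share of shControl BMAL1 peaks retained (vertical axis, percent) by the number of GC boxes (left, blue) or E-boxes (right, red) in the 200 bp summit window, with the number of peaks under each bar and 95% Wilson intervals. Retention runs from 20.1% to 80.2% with more GC boxes and from 41.4% to 11.1% with more E-boxes.

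Tandem repeats were more frequent among retained peaks. A window was called repetitive when it matched itself at 70% identity or more after a shift of 8 to 80 bp. Of 64 such shControl windows 46 were retained (71.9%, 59.9% to 81.4%), against 37.4% of the other 1745, and within quintiles of rank the difference was 17.4 points (8.90 to 25.9). They made up 6.58% of retained, 1.62% of lost and 0 of 67 gained windows (the latter interval reaching 5.42%), and 0.114% of 20141 windows at all protein-coding promoters. FARP2, printed above, holds 11 GC boxes in its window and 28 in the whole peak.

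The motif content of the lists differed accordingly. The E-box was present in 16.8% of lost, 6.58% of retained and 2.99% of gained windows, and in 6.42% of windows of the same length at all protein-coding promoters. The share in retained windows (4.97% to 8.67%) is thus close to that of promoters in general. It is above the 3.32% (2.78% to 3.95%) of 3618 windows taken 2000 bp to either side of the shControl summits. The AP-1 site (TGACTCA or TGAGTCA), bound by FOS and JUN dimers, was in 18.6% of lost, 4.01% of retained and 13.4% of gained windows and in 2.90% of promoters, and peaks with the site were retained in 11.9% of 235 cases. That difference, -30.7 points (-35.0 to -25.4), was -10.3 points (-14.4 to -6.23) within quintiles of rank. The CCAAT box was in 35.9% of lost and 26.0% of retained windows and in 28.2% of promoters. The HRE core (ACGTG or GCGTG), which every E-box contains, was in 60.5% of lost, 54.6% of retained and 38.8% of gained windows and in 43.3% of promoters. For the ETS site (CCGGAAG) no difference was detectable (0.02 points, -8.57 to 9.28), and the promoter share was 10.3%. The cyclic AMP response element (TGACGTCA) was in 2 retained and 15 lost windows and in 2.03% of promoters, and the TATA box (TATAAA) was in 8 retained and 22 lost windows and in 7.56% of promoters.

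**Figure D4:**
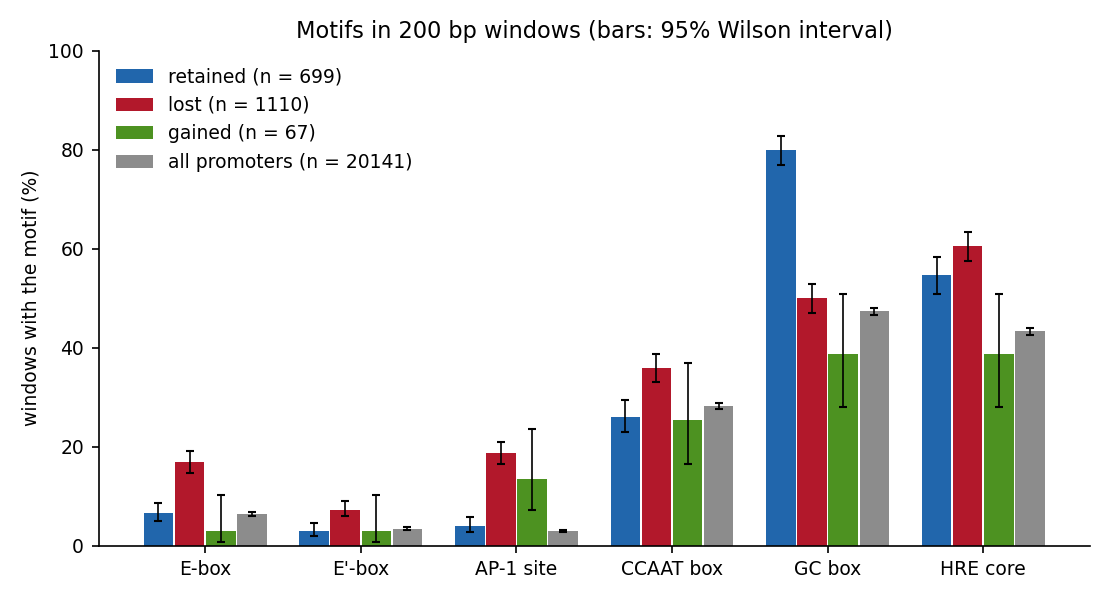
Share of 200 bp windows that hold each motif (vertical axis, percent) in retained (blue), lost (red) and gained (green) BMAL1 peaks and at all protein-coding promoters (grey), with 95% Wilson intervals. The E-box, the E′-box and the AP-1 site are most frequent in lost peaks and the GC box in retained peaks.

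Position in the genome went along with retention as well. Of 1154 promoter peaks 46.4% were retained, against 27.7% of 390 intronic and 20.5% of 195 intergenic peaks. Coding exons kept 2 of 21 peaks and UTRs 4 of 17. The lost coding exon peaks include those of EPAS1 described above, whose origin was not tested. The difference between promoter and all distal peaks was 21.4 points (16.9 to 25.7), and 8.57 points (4.85 to 12.3) within quintiles of rank. Peaks centred within 100 bp of a protein-coding start site were retained less often than those over 100 to 1000 bp away, with 36.5% of 425 against 52.8% of 621, a difference of -16.3 points (-22.3 to -10.2). Within quintiles that difference was -3.89 points with an interval from -8.64 to 0.86, which includes 0. Between promoters with start sites on both strands (139 peaks) and on 1 strand (852) the difference was -0.57 points (-9.28 to 8.36), which was not detectable at these numbers.

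By chromosome, chromosome 19 held the most BMAL1 peaks, 267 of 1812 (14.7%, or 4.52 per Mb), and 154 of them were retained (57.7%, 51.7% to 63.5%). On chromosome 20, 33 of 54 were retained (61.1%, 47.8% to 73.0%), and on chromosome 6, 13 of 63 (20.6%, 12.5% to 32.2%). For chromosome 19 the difference from the other chromosomes was 22.3 points (15.8 to 28.5). Within quintiles of rank it was 6.19 points (0.98 to 11.4). For promoter peaks alone it was 14.8 points (7.10 to 22.2), and 1.37 points (-4.65 to 7.38) within quintiles. The median rank of chromosome 19 peaks was 551, against 906.5 for the whole list. For chromosome 20 the difference within quintiles was 14.9 points (4.05 to 25.8). With 24 chromosomes compared and no adjustment, single chromosomes are given as values.

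**Figure D5:**
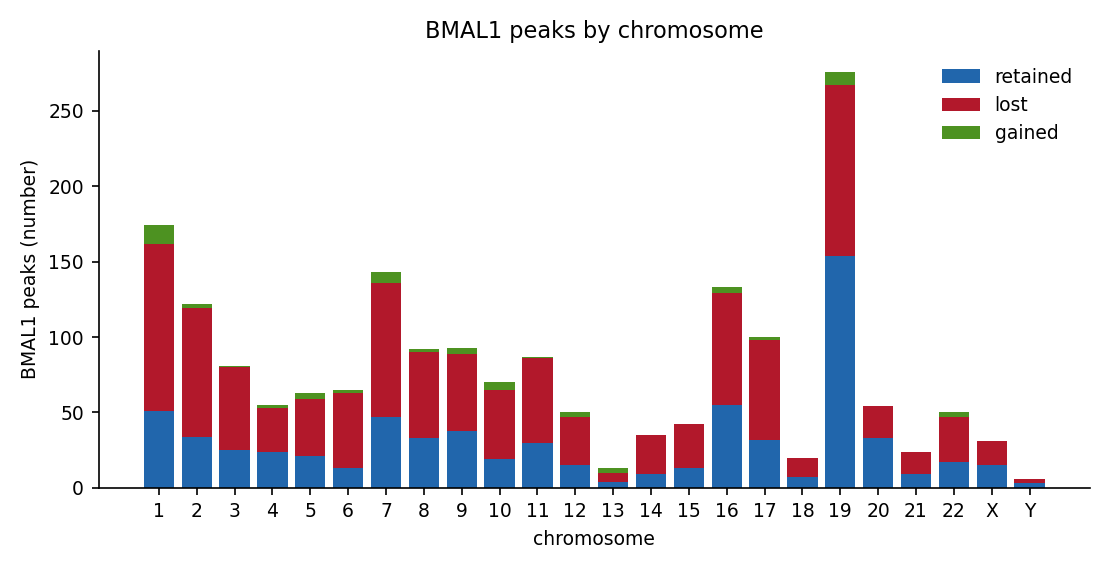
Number of BMAL1 peaks on each chromosome (vertical axis), split into retained (blue) and lost (red) shControl peaks and gained shBMAL1 peaks (green). Chromosome 19 has 154 retained, 113 lost and 9 gained peaks, and chromosome 6 has 13 retained, 50 lost and 2 gained.

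Promoter peaks were counted by gene family, beside 45.8% retained over all 1143 genes. The interval of each family with a peak includes that share, so that no difference between a family and all genes was detectable. Of 516 ZNF zinc finger genes, which are clustered on chromosome 19, 35 had a shControl promoter peak (6.78%, against 5.68% of all protein-coding genes). The peak was retained at 21 of them (60.0%, 43.6% to 74.4%). ZNF7 (ranks 47 and 34 in shControl and shBMAL1), ZNF524 (49 and 52), ZNF558 (133 and 128) and ZNF557 (164 and 121) kept their places. Factors that bind E-boxes themselves had 6 genes with a peak and 1 retained, the MYC antagonist MXI1 (ranks 235 and 464), while MXD4 (rank 629), MXD3 (rank 925) and TFE3 (rank 1192) were lost.

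The housekeeping groups had few promoter peaks in number, but most groups with any had a larger share than the 5.68% of all protein-coding genes. A shControl promoter peak was found at 17.1% of 35 splicing factors, 14.6% of 48 proteasome genes and 12.5% of 56 translation initiation factors. The share was 10.8% of complex I subunits, 9.38% of RNA polymerase subunits and 7.69% of mitochondrial ribosomal proteins. For DEAD-box helicases it was lower, at 2.63% of 38. Translation initiation factors and their regulators kept 1 of 7, the kinase EIF2AK1 (rank 910), and proteasome genes kept 1 of 7, the assembly chaperone PSMG1 (rank 803). Mitochondrial ribosomal proteins kept 1 of 6 (MRPS28), complex I subunits 1 of 4 (NDUFA11, ranks 216 and 360) and splicing factors 2 of 6 (SNRPD3 and SF3B6). RNA polymerase subunits lost 3 of 3, DEAD-box helicases 1 of 1 (DDX5), and NRF2 and redox genes 3 of 3, with NQO1 and GCLC among them. Of 25 genes of the hypoxia pathway 5 had a promoter peak (20%). The one at EGLN2, a prolyl hydroxylase that marks HIF for degradation, was retained (ranks 686 and 515). The lost ones included those at ARNT (rank 693), LDHA (rank 1243) and PDK1. Histone genes (80), cytosolic ribosomal proteins (86) and AP-1 and immediate early genes (17) had no BMAL1 promoter peak. The counts are small, and the intervals for all of these groups but the zinc fingers are over 40 percentage points wide.

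Some genes kept a peak and lost another. Of 188 genes with 2 or more shControl peaks, 37 kept all, 72 lost all and 79 did both. The examples were taken by their strongest peak, which at such ranks was retained in nearly all cases. DOP1B kept the promoter peak of rank 14 and lost an intronic peak of rank 1540. INPP5A kept the promoter peak of rank 24. The lost peaks of ranks 1077 and 1124 assigned to it lay 4741 and 20329 bp upstream, outside the body of any protein-coding gene. IQUB kept rank 25, and the lost peak of rank 1204 assigned to it lay 3694 bp upstream, in a UTR within NDUFA5. ZNRF3, a ubiquitin ligase of WNT receptors, kept rank 30 and lost rank 797. ATAD2 kept a peak of rank 39 and lost one of rank 1735, both in promoters. GTF2IRD2B has near-identical copies on chromosome 7 that share reads. It kept an intronic peak of rank 1082 and lost a promoter peak of rank 1621 and an intronic one of rank 750. The retained peak of rank 23 assigned to it lay 64505 bp downstream of its start site, outside the body of any protein-coding gene.

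Gained peaks were few and weak. Of 67, only 4 ranked in the stronger 384 of the 768 shBMAL1 peaks, and the median rank was 666. The strongest were intergenic and 448522 bp upstream of TENM2 (rank 248, fold 11.2), at the ECI2 promoter (rank 292, fold 19.1), in AGBL4 (rank 318, fold 9.67) and in DYNC2H1 (rank 336, fold 8.64). Those near TENM2, AGBL4 and DYNC2H1 overlapped a HIF2α peak in both conditions. Gained promoter peaks included CYP1B1 (rank 598), OGG1, which excises oxidised guanine (rank 640), TNFRSF19 (rank 461) and TLE4 (rank 684). By class, 29 of 67 were at promoters (43.3%, 32.1% to 55.2%), beside 63.7% of shControl peaks (61.4% to 65.9%), 17 in introns and 17 between genes, and 4 lay within 4531 bp of each other with ZP4 as the nearest gene. A HIF2α peak of either condition overlapped 11 of 67 (16.4%, 9.42% to 27.1%), beside 15.3% of retained and 26.1% of lost peaks.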

How the data were processed

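CUT&RUN reads were aligned by the authors to hg19 with Bowtie2 2.5.3, duplicates were removed, and peaks were called per group on pooled libraries with MACS2 2.2.9.1. As deposited by the authors, each peak carries a fold enrichment, a ratio of its summit signal to nearby background, and a −log10 p given by MACS2. The lists hold no counts and no depth. Libraries with IgG (4 of 15) were not analysed here.

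Peaks were intersected at 1 bp or more, placed by midpoint on GENCODE 44 (GRCh37, the coordinates of hg19), and scanned for 9 motifs in 200 bp at the summit. Promoter windows for comparison ran from 150 bp upstream to 50 bp downstream of 20141 start sites. Coordinates count from 1. Intervals are Wilson, Newcombe or, for medians, exact order-statistic intervals at 95%. No test was run, since each group is 1 list. Python 3.11.15, pandas 2.3.3, scipy 1.17.1 and pysam 0.24.0 were used, and the code was tested on simulated lists.

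Named peaks were the 10 strongest of each class, all peaks at clock genes, up to 4 genes per other list, the 5 strongest lost and retained promoter peaks with an E-box, and 6 genes with both. MAP2K7 and the other lost peaks outside EPAS1 and ARNT, the tandem repeats and the 5 largest falls in rank, SP1, ZBTB24, MAMSTR, BLOC1S3 and gained promoters were picked after their values were seen. Some members of these lists are not reported here. Members and the 16 gene lists were chosen with earlier results of these data known. Alternatives were other overlap rules, windows, promoter sizes, list lengths and strength limits, and leaving out chromosomes or genes.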

Additional observations from a re-analysis of the deposited data

How the results depend on the processing

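Of 59 alternatives over 11 results, 43 left the value within the main 95% interval (for the count, within 1.5 times it), 16 moved it and 0 reversed it. With lists of equal length 72.9% of peaks were retained and 72.9% shared, the E-box difference was -35.9 points and that of GC content above the median 19.3. At −log10 p of at least 20 the retained share was 49.5%, the promoter difference 15.6 points and the E-box difference -36.5 points. Within quintiles of rank the promoter difference was 8.57, the GC content difference 7.98 and the GC box difference 11.98 points. The promoter difference was 26.2 points with promoters of 2500 bp to each side and 15.7 points with protein-coding start sites only. In a 100 bp window the E-box difference was -27.5 points. At promoter peaks alone the GC content difference was 11.5 points. By fold, the correlation across retained pairs was 0.73, and the number of clock peaks that ranked past 600 was 2 in place of 5. The cause of these shifts was not tested. The alternatives for the GC box and the clock count, the E-box anywhere in the peak, with the E′-box or at distal peaks, and the retained share without HIF2α peaks were chosen after seeing the data.

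No paired analysis was possible because each group has 1 peak list without replicate numbers, and for the same reason leaving out a library was not run. The files give no depth per list. The study describes the libraries it kept as alike in depth, so that more reads lie behind the pool of 3 than behind the pool of 2, and a lost peak cannot be told apart from one below the threshold of the smaller pool.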

Other observations

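HIF2α overlap was frequent among the retained peaks that moved up most in the order of the 701 pairs. Of the 12 largest rises, 9 overlapped a HIF2α peak in both conditions, and 59 of the 701 retained peaks (8.42%) did so. A peak near PLCB4, a phospholipase C, shifted by -485 places among the pairs, with folds of 2.48 in shControl and 11.5 in shBMAL1 cells. Peaks nearest to KCNAB2 (-404 places, folds 2.76 and 8.83), ARHGEF28 (-368, 2.81 and 8.39), RARB, the retinoic acid receptor beta (-336, 2.33 and 7.88), and IRS1, the insulin receptor substrate (-326, 2.29 and 6.09), ran the same way. Over the 59 peaks the median shift was -106 places (-155 to -8), that is towards stronger ranks, against 1.5 places (-2 to 6) for 594 peaks with no HIF2α peak. The median log2 fold ratio was 0.52 (0.19 to 0.79) against 0.15 (0.09 to 0.20). PER1 and PER2, which overlapped HIF2α peaks in both conditions, went the opposite way. In shControl the named rises ranked 1289 (PLCB4), 1623 (KCNAB2), 726 (ARHGEF28), 1595 (RARB) and 1732 (IRS1). Of all shControl peaks in ranks 801 to 1812, 12.8% were retained. A weak shControl peak is among the pairs only if it passed the shBMAL1 threshold, so that a rise is favoured by this selection. How much of the shift comes from it was not tested.

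Among retained peaks, the 46 with an E-box were shifted by a median of 25 places (8 to 59) towards weaker ranks, against -1 (-5 to 2) for 653 without. By fold the median log2 ratio was -0.01 (-0.20 to 0.23) against 0.18 (0.12 to 0.24), with intervals that overlap. Peaks with a CCAAT box were shifted by 18.5 places (4 to 46, n = 182) against -3 (-6 to 1, n = 517). These shifts were looked at among several features, without adjustment, and are descriptions.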
